A study of Mus musculus with 40 samples.

Results

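The synaptic genes of excitatory neurons described here are 41 named mouse genes that build the glutamate synapse of the cortex, given as a named list that was drawn up with earlier results of these data known. A gene was kept if the array held a probe set naming that gene alone, which 39 of the 41 had, out of 18193 genes measured in all, while Grin1 and Shank2 are not analysed here. Signals of 40 Affymetrix arrays were compared in 5 groups. They comprised 2 cell lines from early-stage biopsies of p53R172HCKO brains, 11 cell lines from malignant gliomas of p53R172HCKO mice, 11 p53R172HCKO gliomas, 11 p53nullCKO gliomas and 5 control cortices. Both kinds of line and the p53R172HCKO gliomas carried hGFAP-cre with p53LSLR172H over p53floxE2-10, that is 1 missense and 1 deleted p53 allele, whereas p53nullCKO gliomas carried hGFAP-cre with p53floxE2-10 on both alleles. Of the cortices, 3 carried hGFAP-cre with 1 p53floxE2-10 allele and 2 lacked Cre and carried p53floxE5-6 on both alleles, so that by these genotypes all 40 samples held at least 1 engineered p53 allele, although the extraction text calls the controls wild-type brain. In these mice Cre is driven by the human GFAP promoter, which is active in neural stem and progenitor cells and therefore recombines p53 in neurons as well as in glia. The lines grew as spheres of early passage in neural stem cell medium with bFGF and EGF. Arrays are named below by the number in their label.

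An excitatory synapse releases glutamate from vesicles that are loaded by a vesicular transporter, docked by SNARE proteins and triggered by calcium sensors. On the receiving side AMPA, NMDA and kainate receptors are ion channels opened by glutamate, metabotropic receptors act through G proteins, and scaffold proteins of the postsynaptic density hold them in place beside the kinase CaMKII. Most of these genes are hallmarks of mature cortical neurons, but several AMPA and metabotropic receptor subunits are also made by astrocytes and by oligodendrocyte progenitors, the glial precursors that malignant gliomas often resemble.

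All values are the deposited log2 signals, on which a difference of 1 is a 2-fold difference. The median signal of an array lay between 5.24 and 5.47, with a mean of 5.36, and a gene under that level is close to the signal of genes with little or no RNA. The mean of 11 of the 39 synaptic genes was under that level in the lines, of 16 in the early biopsy lines, of 4 in gliomas and of 1 in cortex, and for those a difference from a brighter group is a lower bound. The cortices held neuron markers at a high level, with a neuron score (mean log2 signal of 19 neuron genes, none a synapse gene) of 11.36 to 11.79. Of the 22 gliomas, 3 stood near the cortices on that score: arrays 58, 38 and 45 had 11.10, 11.09 and 11.04, while the next highest glioma had 9.76 and the lowest 6.32. The same 3 gliomas had the lowest mean level of 17 genes of dividing cells, 6.34, 8.70 and 6.49 in arrays 58, 38 and 45, against 9.18 to 10.76 in the other gliomas and 4.72 to 4.97 in cortex. The histology of the study noted normal tissue in a p53R172HCKO tumor, numbered in the study's own order, but the labels carry no tumor numbers and do not say which array it was. The labels also do not tie arrays to animals, so p-values measure the spread between these arrays.

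Promoter sequences of 3 members are shown because the same short motif stood before Syn1, which fell strongly in gliomas, and Nlgn1, which fell little, and a related one before Gria2. The motif is TTCAGCACC, the left arm of RE1, the site of the repressor REST that keeps neuronal genes silent outside neurons. RefSeq windows of build GRCm38.p6, from 250 bases before to 50 bases after a gene's start, were found for 29 of the 39 members. A gene can have several windows, and these members had 48. For each motif below the number of member windows with it equals the number of members named. Searched on both strands, TTCAGCACC was in the windows of 2 members, Syn1 and Nlgn1, and in 0.371% of all 32851 windows. The right arm of RE1, GGACAGCGC, was in the window of 1 member, Gria2, and in 0.405% of all windows. The cyclic AMP response element TGACGTCA was in the window of Syn1 and in 1.79% of all windows. Capitals mark these matches in the 250 bases before each start, written 5′ to 3′ on the strand of the gene.
Syn1, chrX:20920919-20921168, minus strand, RE1 left arm at -232 to -224 and cyclic AMP response element at -159 to -152: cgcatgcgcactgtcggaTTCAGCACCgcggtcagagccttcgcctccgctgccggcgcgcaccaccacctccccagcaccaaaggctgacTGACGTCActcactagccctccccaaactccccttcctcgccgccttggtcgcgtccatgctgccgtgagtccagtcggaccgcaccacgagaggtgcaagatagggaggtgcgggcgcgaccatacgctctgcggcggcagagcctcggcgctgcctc
Nlgn1, chr3:26153987-26154236, minus strand, RE1 left arm at -153 to -145: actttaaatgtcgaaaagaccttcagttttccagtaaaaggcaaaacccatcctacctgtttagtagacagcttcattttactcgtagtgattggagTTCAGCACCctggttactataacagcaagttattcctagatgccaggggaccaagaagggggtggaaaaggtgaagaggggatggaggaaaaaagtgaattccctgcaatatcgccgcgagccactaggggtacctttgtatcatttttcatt
Gria2, chr3:80802836-80803085, minus strand, RE1 right arm at -173 to -165, read on the opposite strand: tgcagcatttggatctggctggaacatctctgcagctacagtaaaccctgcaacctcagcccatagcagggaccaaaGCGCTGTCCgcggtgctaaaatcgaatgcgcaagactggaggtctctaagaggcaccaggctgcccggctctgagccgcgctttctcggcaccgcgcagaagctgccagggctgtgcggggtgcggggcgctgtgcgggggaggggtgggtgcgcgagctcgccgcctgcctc
A match is a run of letters in this window and not a measured site. With its base before GC left open, as GGACAGNGC, the right arm was in the windows of 4 members, Camk2b, Dlgap1, Gria2 and Sv2b, and in 1.91% of all windows. The other 2 motifs searched were common ones. The E-box CAGCTG was in 11 of the 48 member windows and 16.3% of all windows. The Sp1 box GGGGCGGGG was in 9 of the 48 member windows and 11.4% of all windows.

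Synaptic genes were lower in gliomas than in cortex almost throughout the list. In gliomas of both genotypes against cortex 35 of 39 members (89.7%) fell and none rose, with a median log2 difference of -3.49, whereas 24.7% of all genes fell and the median of all genes was -0.03 (limma, Benjamini-Hochberg adjusted p under 0.05). The 4 members without a significant difference were 3 ionotropic receptors, Gria3, Gria4 and Grik2, and the scaffold Shank1. By role, all 4 calcium sensors and calmodulin-binding genes, all 14 vesicle genes, both dynamins, both metabotropic receptors and both adhesion genes fell, as did 7 of 8 scaffolds and kinases and 4 of 7 ionotropic receptors. The median difference was largest for the calcium group, -5.38, and smallest for the ionotropic receptors, -1.62. In bulk tissue fewer neurons and less RNA per neuron cannot be told apart, and the neuron genes outside the synapse fell beside the members, 18 of 19 with a median of -3.60. Genes of dividing cells were higher in gliomas, 17 of 17, as were 6 of 13 genes of oligodendrocyte progenitors and 10 of 15 of microglia and macrophages. Of all 18193 genes, 4104 were higher. Lower were 10 of 14 interneuron genes, 8 of 12 genes of mature oligodendrocytes and 8 of 14 of astrocytes, with medians of -3.11, -2.35 and -1.21. The part of all these cells in the difference was not tested. Without arrays 38, 45 and 58 the count stayed at 35.

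**Figure D1:**
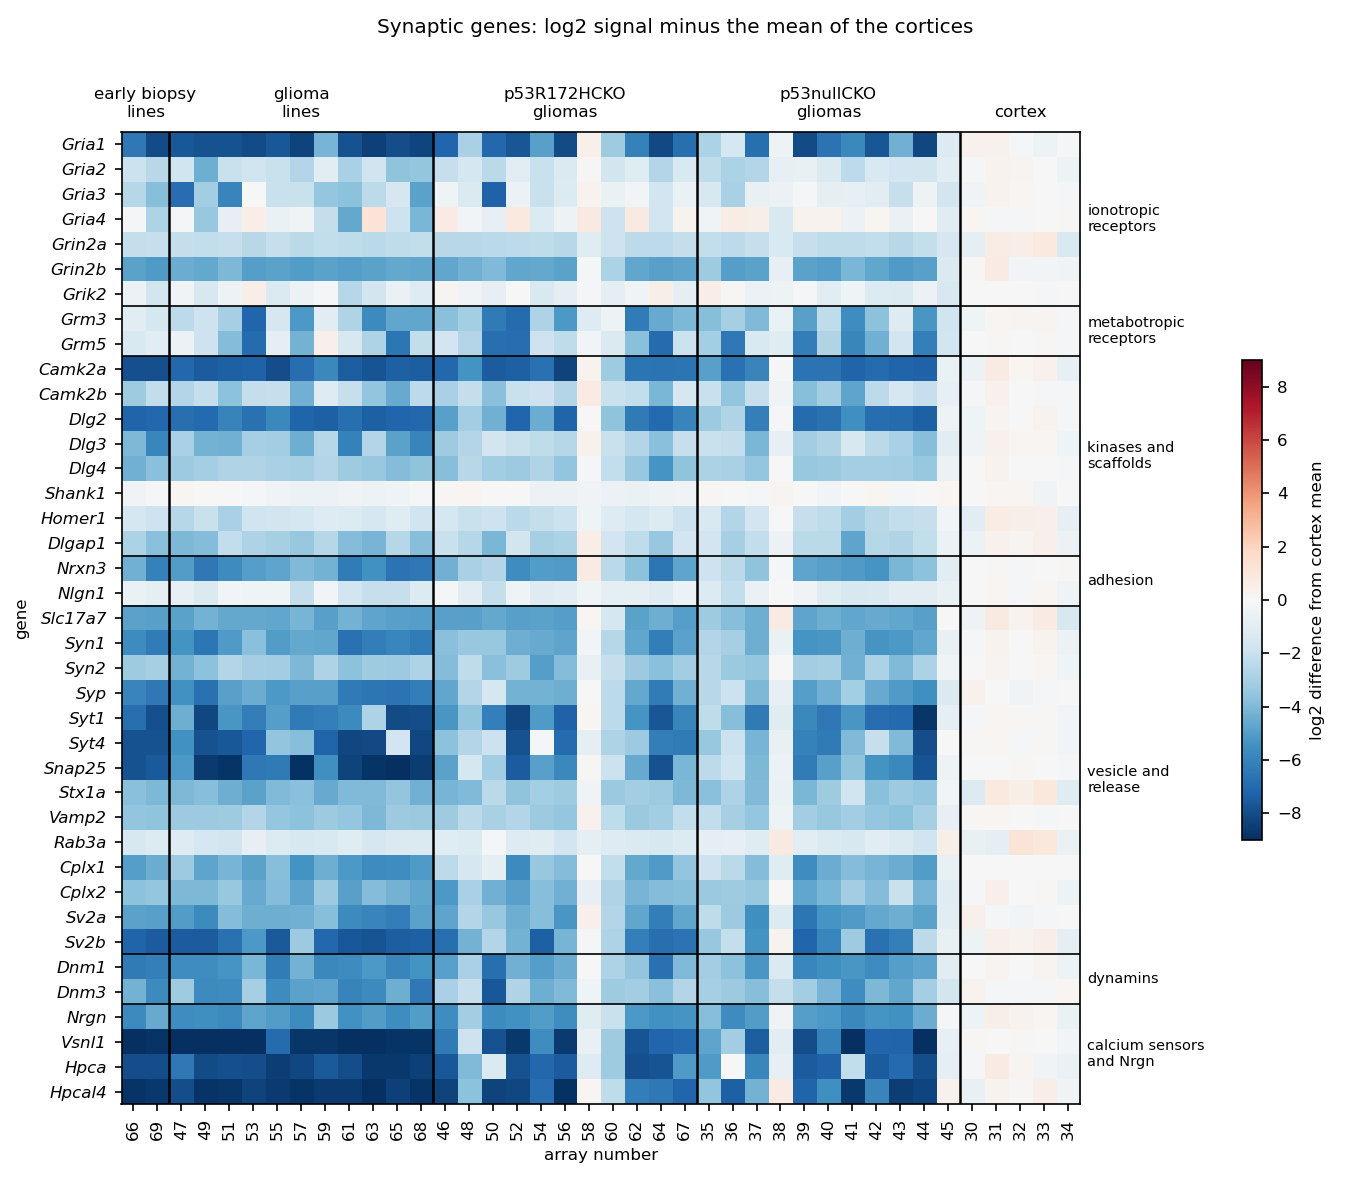
Log2 signal of the 39 synaptic genes (rows, grouped by role) on each of 40 arrays (columns, by array number) minus the mean of the 5 cortices; blue is lower and red higher than that mean. The gliomas of arrays 58, 38 and 45 are paler than the other gliomas across most rows, while Gria4, Shank1 and Grik2 are pale across the gliomas.

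Of the AMPA receptor subunits, Gria1, a main subunit of excitatory pyramidal cells, fell most. Its log2 signal in gliomas had a lowest value of 3.06, a median of 4.91 and a highest of 11.69, while the 5 cortices had 11.62, 11.67, 11.12, 10.82 and 11.07. Only 1 glioma, array 58, reached the cortices, and the rest lay below them. The difference was -5.24 ± 1.07 (standard error, adjusted p = 0.000116), 37.7-fold lower. Gria2, the subunit that makes AMPA receptors impermeable to calcium, fell less, by 1.62 ± 0.39 (adjusted p = 0.000698), with 9.03 to 11.99 in gliomas and 11.42 to 12.24 in cortex.

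Gria3 and Gria4 kept a high signal in most gliomas. Gria3 ranged from 3.52 to 11.08 with a median of 10.01 in gliomas, and the cortices had 10.48, 11.12, 10.94, 10.82 and 10.59. The lowest value was that of array 50, and every other glioma lay at or above 7.88. Only 3 gliomas lay at or above the lowest cortex for Gria3. The difference of -1.28 ± 0.78 did not pass (adjusted p = 0.179), but did with array weights (limma, adjusted p = 0.0350). In p53nullCKO gliomas against cortex Gria3 passed when only the compared groups were fitted (-1.14, limma, adjusted p = 0.0173). Gria4, an AMPA subunit of interneurons and of oligodendrocyte progenitors, ranged from 7.35 to 10.13 with a median of 9.15 in gliomas, against 9.40, 9.10, 9.10, 9.24 and 9.38 in cortex. At or above the lowest cortex were 11 of 22 gliomas, so the groups overlapped widely and the difference was -0.21 ± 0.61 (adjusted p = 0.804).

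The NMDA receptor genes Grin2a and Grin2b encode the subunits that bind glutamate, Grin2b predominating in young and Grin2a in mature synapses. Grin2b fell by 3.99 ± 0.56 (adjusted p = 4.15e-07), with a median of 4.07 in gliomas against 8.86, 9.46, 8.51, 8.49 and 8.43 in cortex. Grin2a, at 4.03 to 6.24 in cortex, fell by 2.15 ± 0.22 (limma, adjusted p = 1.24e-09) and had a median of 3.09 in gliomas. Every glioma was under the mean array median of 5.36 for Grin2a, the highest at 4.27. Cortices 30 and 34 were under it too, at 4.57 and 4.03, while cortices 31 to 33 had 5.98 to 6.24. The kainate receptor subunit Grik2 had 4.94 to 6.93 with a median of 5.86 in gliomas, against 6.40, 6.41, 6.36, 6.24 and 6.39 in cortex. Of the gliomas, 6 lay at or above the lowest cortex. The difference of -0.49 ± 0.32 did not pass (adjusted p = 0.215), but did with array weights (limma, adjusted p = 0.0407).

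The metabotropic receptors Grm3 and Grm5 are made by neurons and also by astrocytes. They were the only receptors for which every glioma lay below every cortex. Grm3 had 4.25 to 10.73 with a median of 7.35 in gliomas, against 10.74, 11.30, 11.37, 11.37 and 10.97 in cortex, a difference of -3.65 ± 0.86 (adjusted p = 0.000596). Grm5 had 3.88 to 10.55 with a median of 8.14 in gliomas, against 10.77, 10.91, 10.86, 10.88 and 10.60 in cortex, a difference of -3.49 ± 1.04 (adjusted p = 0.00556). Gliomas thus ran from the dim range to just under the lowest cortex for both genes. A complete separation from cortex was seen for 4 members in all, Grm3, Grm5, Vsnl1 and Dnm3, and for 3.59% of all genes.

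Among the postsynaptic kinases and scaffolds the alpha subunit of CaMKII, Camk2a, which is particular to excitatory forebrain neurons, was the second most reduced member. It had 4.72 to 13.38 with a median of 6.38 in gliomas, against 12.50, 13.78, 13.22, 13.43 and 12.33 in cortex. Arrays 58, 38 and 45 lay within the cortex range at 13.38, 12.86 and 12.45, array 60 followed at 9.86, and the other gliomas had 8.19 or less. The difference was -5.69 ± 0.94 (adjusted p = 6.06e-06), 51.5-fold lower. The beta subunit Camk2b, found in more cell types, fell by 2.32 ± 0.55 (adjusted p = 0.000706).

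The scaffold Dlg2 (PSD-93) fell by 4.86 ± 0.91, while its relatives Dlg4 (PSD-95) and Dlg3 (SAP102) fell by 2.85 ± 0.47 and 2.32 ± 0.52, Dlgap1, which links them to Shank proteins, by 2.26 ± 0.48, and Homer1, which binds metabotropic receptors, by 1.75 ± 0.35 (adjusted p at most 0.000372 for each). Shank1 was dim in every group. It had 3.996 to 4.82 with a median of 4.54 in gliomas, against 4.61, 4.73, 4.78, 4.23 and 4.51 in cortex, and the difference was -0.12 ± 0.11 (adjusted p = 0.407). All of these values lie under the array median, in cortex too. With array weights Shank1 passed (adjusted p = 0.0338).

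Across the cleft, Nrxn3, a presynaptic neurexin, fell by 3.59 ± 0.74 (adjusted p = 0.000117), and its postsynaptic partner Nlgn1 fell by less than any other member that passed. Nlgn1 had 7.23 to 9.46 with a median of 8.47 in gliomas, against 9.47, 9.62, 9.35, 9.64 and 9.15 in cortex, a difference of -0.93 ± 0.29 (adjusted p = 0.00877). Arrays 38 and 46 reached the cortex range at 9.46 and 9.26, and arrays 36 and 50 were lowest at 7.23 and 7.29. With the mean of the gene's probe sets in place of the brightest, Nlgn1 did not pass (adjusted p = 0.0615). Syn1, whose promoter holds the same 9 letters as that of Nlgn1, fell by 3.83 ± 0.66 (adjusted p = 1.08e-05).

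The vesicle genes fell together, 14 of 14 with a median of -3.65 and adjusted p of at most 0.00472. Syt1, a calcium sensor of release, and its relative Syt4 fell by 5.05 ± 1.02 and 3.79 ± 1.09. Snap25, a SNARE protein of the plasma membrane, had 5.62 to 13.53 with a median of 9.13 in gliomas, against 13.43, 13.51, 13.53, 13.44 and 13.30 in cortex. Its gliomas were spread from near the array median to the cortex level while the cortices lay close together, and the difference was -4.04 ± 0.97 (adjusted p = 0.000775). The partners of Snap25, the syntaxin Stx1a and the vesicle SNARE Vamp2, fell by 2.98 ± 0.49 and 2.65 ± 0.41.

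Slc17a7, the vesicular glutamate transporter VGLUT1 that defines most cortical excitatory neurons, had 3.77 to 9.47 with a median of 4.08 in gliomas, against 8.28, 9.51, 9.06, 9.45 and 7.31 in cortex. Arrays 38, 58 and 45 were at 9.47, 8.91 and 8.77, array 60 at 7.11, and the other gliomas were at 5.50 or less. The difference was -3.78 ± 0.70 (adjusted p = 2.9e-05). The vesicle membrane genes Sv2b, Sv2a and Syp fell by 4.30 ± 0.95, 3.91 ± 0.69 and 3.52 ± 0.66, the synapsin Syn2 by 2.94 ± 0.48, and the complexins Cplx2 and Cplx1, which clamp the SNARE complex, by 3.36 ± 0.51 and 3.22 ± 0.66. Rab3a, a GTPase of the vesicle surface, fell least of the vesicle genes, by 0.99 ± 0.29 (adjusted p = 0.00472). That value depended on the controls, since cortices 32 and 33 had 11.66 and 11.43 and the other 3 had 9.61 to 9.88, and without cortex 32 it did not pass (adjusted p = 0.0589). The probe set used ends in _x_at, a mark of possible cross-hybridization, and the other probe set of Rab3a gave a mean of 8.64 in gliomas and 11.59 in cortex, a difference of -2.96.

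The dynamins pinch vesicles off the membrane during recycling. Dnm1, the neuronal form, fell by 4.17 ± 0.69 (adjusted p = 6.29e-06). Dnm3, which is also postsynaptic, had 3.99 to 11.23 with a median of 8.46 in gliomas, against 11.94, 11.43, 11.40, 11.51 and 11.77 in cortex. The groups did not overlap, and the difference was -3.42 ± 0.62 (adjusted p = 2.33e-05).

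The calcium sensors and the calmodulin-binding gene Nrgn fell most as a group. Visinin-like Vsnl1 had 3.33 to 11.65 with a median of 5.23 in gliomas, against 12.39, 12.31, 12.41, 12.35 and 12.05 in cortex. No glioma reached the cortices, and its difference was the largest of the list, -5.81 ± 1.06 (adjusted p = 2.5e-05), 56.3-fold lower. Hpcal4 had 3.42 to 13.07 with a median of 5.67 in gliomas, against 11.65, 12.60, 12.40, 12.87 and 12.02 in cortex, and fell by 5.65 ± 1.14 (adjusted p = 0.000101). In arrays 38, 45 and 58 it was at 13.07, 12.67 and 12.47, within or above the cortex range. Nrgn (neurogranin), a dendritic protein of forebrain excitatory neurons, fell by 4.35 ± 0.70 (adjusted p = 4.27e-06).

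Hpca (hippocalcin) fell by 5.11 ± 1.08 (adjusted p = 0.000171) but was high in a second set of gliomas. It had 3.91 to 11.85 with a median of 5.46 in gliomas, against 11.76, 12.63, 12.13, 11.57 and 11.26 in cortex. The highest glioma was array 36 at 11.85, and arrays 50 and 41 were at 10.57 and 9.68. In these 3 gliomas 8 members lay above the glioma median on each array, 11 below it on each and 20 did neither. The shares of all genes that did so were not counted, so these numbers cannot be read as particular to the members. The 8 were Hpca, Snap25, Syp, Sv2b, Stx1a, Dlg2, Dlg3 and Shank1. Of these, Snap25 was at 11.63, 10.32 and 9.83 and Syp at 9.02, 9.40 and 7.88 in arrays 36, 50 and 41, against glioma medians of 9.13 and 6.72. Shank1, dim in every group, was barely above its glioma median of 4.542, at 4.63, 4.55 and 4.543 in these arrays. The 11 included Camk2a, Nrgn and Hpcal4. Camk2a was at 6.34, 5.59 and 5.86 and Slc17a7 at 4.88, 4.11 and 4.04 in arrays 36, 50 and 41, against glioma medians of 6.38 and 4.08. The other glutamate transporter Slc17a6 was at 8.51, 4.78 and 10.42, against a glioma median of 3.61. Slc17a6 was not particular to this set, with 9.95 in array 48, 8.83 in array 58, 8.52 in array 38, 7.81 in array 45 and 5.87 in array 60. Arrays 36, 50 and 41 had the 3 highest levels of 14 neuroblast genes, 9.15, 10.19 and 9.09, against 8.17 or less in the other gliomas and 6.65 to 7.13 in cortex. Arrays 38, 45 and 58 had Hpca at 11.11, 11.07 and 10.69, so both sets of gliomas stood high for this gene. The part of neuroblast-like cells in the Hpca signal was not tested.

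**Figure D2:**
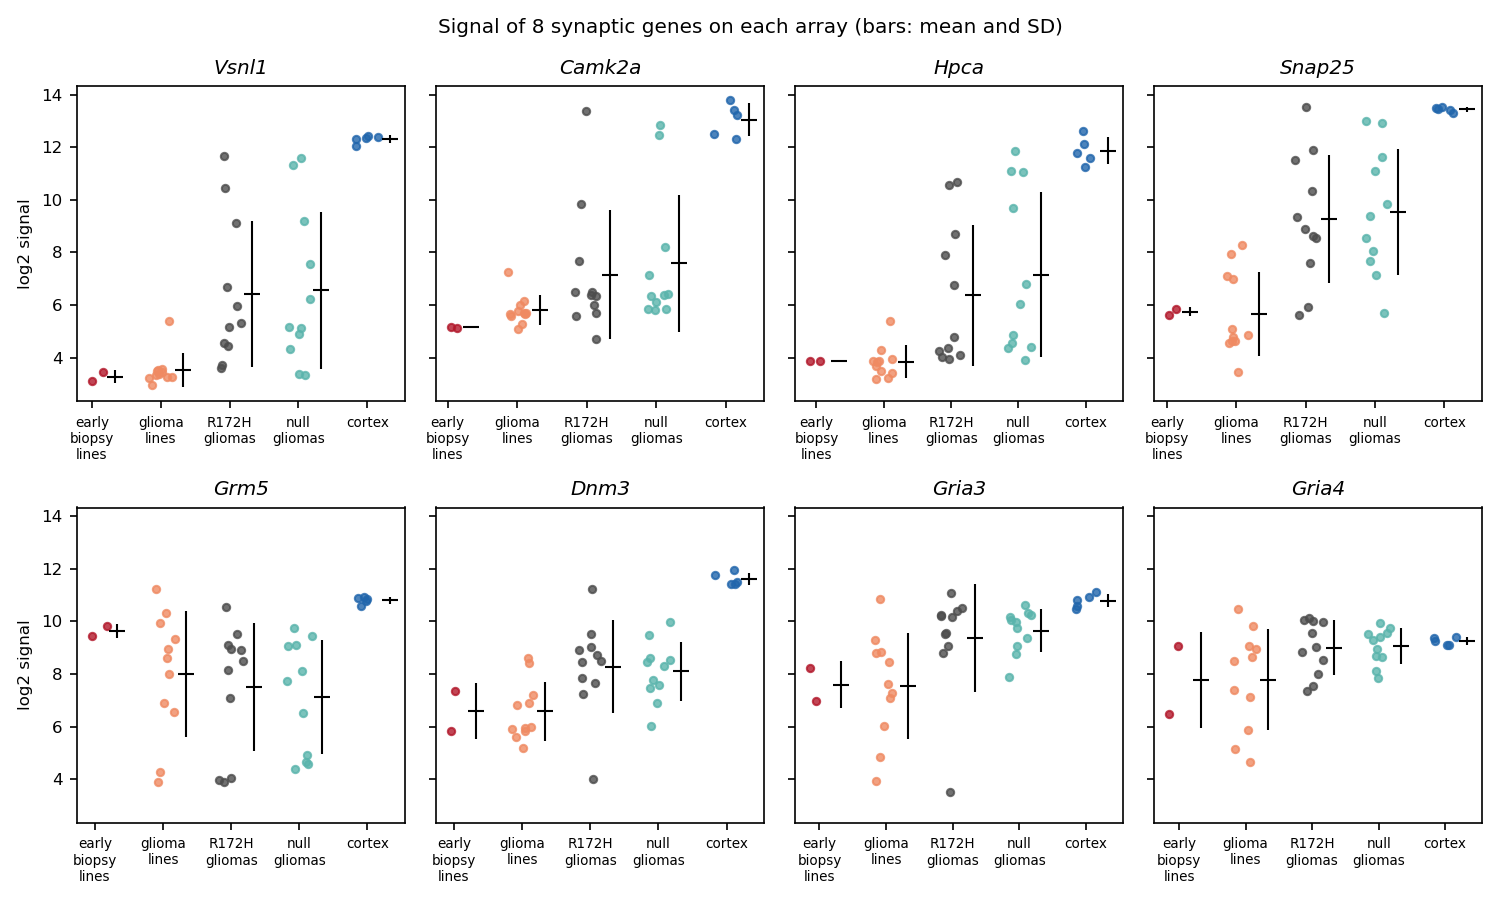
Log2 signal of 8 synaptic genes on each array (points) in early biopsy lines, glioma lines, gliomas of both genotypes and cortex, with mean and SD beside the points. Vsnl1, Dnm3 and Grm5 have no glioma within the cortex range, Hpca has 1, and Gria4 overlaps with cortex in gliomas and in glioma lines.

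The genotypes of p53 were then compared. Against cortex, 35 of 39 members fell in p53R172HCKO gliomas (median -3.58, 24.3% of all genes fell) and 35 of 39 in p53nullCKO gliomas (median -3.41, 22.2% of all genes fell). Both comparisons used the same 5 cortices. Set against each other directly, p53R172HCKO and p53nullCKO gliomas differed for none of the 39 members at an adjusted p under 0.05, which 0.033% of all genes passed. At an unadjusted p under 0.05 there was 1 member, against 11.1% of all genes. That member was Shank1, with a mean of 4.30 in p53R172HCKO and 4.60 in p53nullCKO gliomas (n = 11 each), a difference of -0.30 ± 0.10 (adjusted p = 0.194) within the dim range. The largest differences in size were -0.83 ± 0.82 for Sv2b and -0.78 ± 0.93 for Hpca, each below or near its standard error, so a difference of several-fold could not have been told from the spread between tumors. The median over the list was -0.13.

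Single gliomas differed far more than the genotypes. In array 58, a p53R172HCKO glioma, 27 of 39 members (69.2%) were at or above the lowest cortex, as were 72.0% of all genes, and the median member lay 0.07 below the cortex mean. In arrays 38 and 45, both p53nullCKO gliomas, 15 and 11 members (38.5% and 28.2%) were at or above the lowest cortex, against 65.5% and 65.6% of all genes, and the median member lay 0.54 and 0.74 below the cortex mean. The other 19 gliomas had 0 to 5 such members, against 57.1% to 67% of all genes, and their median member lay between -2.24 (array 60) and -4.91 (array 64) relative to the cortex mean. In 4 gliomas, arrays 60, 35, 48 and 36, the median member was less than 3 below cortex, at -2.24, -2.51, -2.65 and -2.91. These 4 had neuron scores of 9.49, 9.02, 9.72 and 9.76, and of the remaining gliomas only array 50, at 9.48, came above 8.93.

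Members were therefore set against the neuron score across the 22 gliomas, with the genotype in the fit. The slope is the change in a member's log2 signal per log2 unit of the score. It was positive at an adjusted p under 0.05 (limma) for 30 of 39 members (76.9%) and for 10.7% of all 18174 genes tested. No member had a significant negative slope. All 14 vesicle genes and all 4 calcium genes had a significant positive slope. So had 6 of 8 scaffolds and kinases but only 3 of 7 ionotropic receptors. The highest slopes were 1.75 ± 0.16 for Gria1 and 1.75 ± 0.20 for Hpca, followed by 1.69 ± 0.21 for Vsnl1. The lowest adjusted p of the list was that of Dlg2, whose slope was 1.59 ± 0.11 (adjusted p = 1.03e-08). The slopes of Gria3, Gria4, Grik2 and Nlgn1 were -0.21 ± 0.23, -0.16 ± 0.13, -0.07 ± 0.09 and -0.0048 ± 0.086, and none of them passed. Syn1 had a slope of 1.03 ± 0.11 (adjusted p = 1.37e-06).

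**Figure D3:**
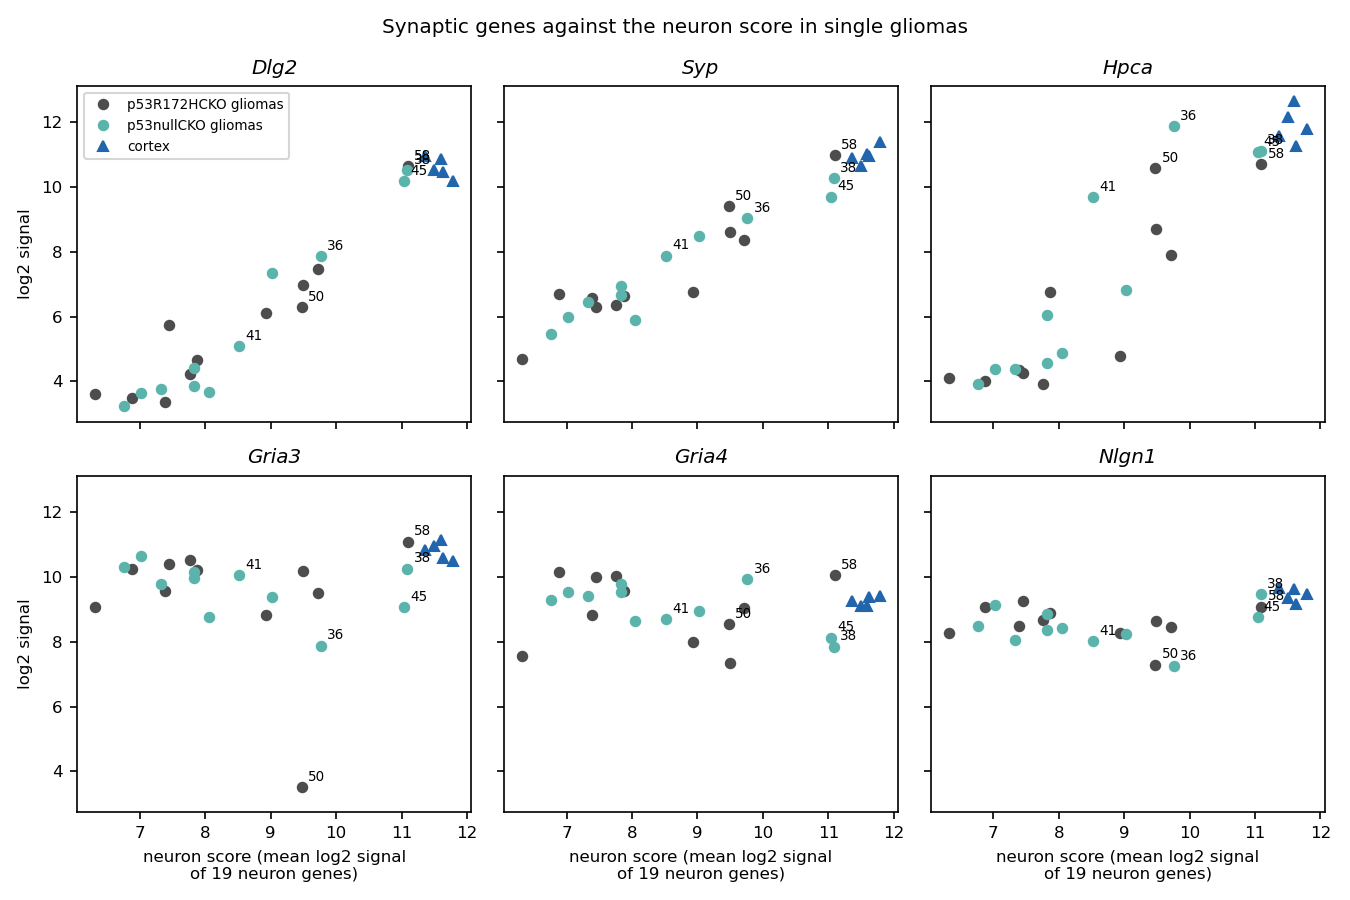
Log2 signal of 6 synaptic genes against the neuron score in single gliomas (circles) and cortices (triangles), with arrays 36, 38, 41, 45, 50 and 58 numbered. Dlg2 and Syp climb with the score across all gliomas, Hpca is high in arrays 36, 41 and 50 at middle scores, and Gria3, Gria4 and Nlgn1 show no climb, with array 50 lowest for Gria3 and arrays 36 and 50 lowest for Nlgn1.

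The 3 gliomas near cortex weighed on these slopes. Without arrays 38, 45 and 58 the count of members with a significant positive slope was 13 in place of 30. The share of all genes was 2.21% in place of 10.7%. The 13 were Hpca, Snap25, Gria1, Syt4, Vsnl1, Syt1, Dlg2, Cplx1, Syp, Nrxn3, Sv2a, Syn1 and Dlg4. Snap25 then had a slope of 1.69 ± 0.17 and Dlg2 of 1.32 ± 0.15. Members that did not pass among the other 19 gliomas included Camk2a, with 0.50 ± 0.22 (limma, adjusted p = 0.205), and Slc17a7, with 0.34 ± 0.16 (limma, adjusted p = 0.24). In these 19 gliomas Slc17a7 was at 5.50 or less except in array 60, close to or under the mean array median of 5.36. Without arrays 36, 41 and 50 the count was 33, beside 13.1% of all genes, and the slope of Hpcal4 was 1.83 ± 0.21 in place of 1.58 ± 0.31. In p53R172HCKO gliomas alone the count was 11, beside 1.47% of all genes, and in p53nullCKO gliomas alone 25, beside 5.47%. Across all 22 gliomas interneuron genes had significant positive slopes as well, 13 of 14.

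Glioma lines were set against p53R172HCKO gliomas, the tumors of the same genotype, to see which synaptic transcripts remained in culture. By the study's methods each of these tumors had a line of its own, but the labels do not pair them, so the groups were compared as unpaired. Of the 39 members 7 fell (17.9%) and none rose, while 6.43% of all genes fell, and the median of the list was -1.07 against 0.05 for all genes. The 7 were Snap25, Vsnl1, Syp, Dlg3, Cplx1, Dnm3 and Gria2. Snap25 had 3.46 to 8.29 with a median of 4.88 in lines, against 5.62 to 13.53 with a median of 8.90 in these gliomas, a difference of -3.59 ± 0.84 (adjusted p = 0.00302). Vsnl1 had 2.94 to 5.38 with a median of 3.37 in lines, against 3.59 to 11.65 with a median of 5.30 in these gliomas, and fell by 2.90 ± 0.91 (adjusted p = 0.0289). For Vsnl1 the line of array 55 alone overlapped with the gliomas, while for Snap25 the upper lines did, and most lines lay below the lowest glioma. Syp (synaptophysin) fell by 2.09 ± 0.57 (adjusted p = 0.011) and Dlg3 by 1.78 ± 0.45 (adjusted p = 0.00621). Cplx1, Dnm3 and Gria2 fell by 1.70 ± 0.57, 1.69 ± 0.54 and 0.96 ± 0.33 (adjusted p = 0.0403, 0.0294 and 0.0482). Dnm3 and Gria2 did not pass without the glioma of array 58, left out with arrays 38 and 45 (adjusted p = 0.0501 and 0.0911). Cplx1 did not pass without the gliomas of arrays 36, 41 and 50, and Vsnl1 did not with the mean of its probe sets (adjusted p = 0.0734 and 0.0572). With only the compared groups fitted, Cplx1, Dnm3 and Gria2 did not pass (limma, adjusted p = 0.0567, 0.0763 and 0.0961). Cplx1 also did not pass with array weights or with the mean of its probe sets (limma, adjusted p = 0.0779 and 0.0525).

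Microglia and endothelial genes were nearly gone from the lines, 15 of 15 and 12 of 14 being lower than in the gliomas. Of the neuron genes outside the synapse 6 of 19 were lower, with a median of -1.46, and of mature oligodendrocyte genes 6 of 12, with a median of -1.59. Of all genes 6.43% were lower. The mean level of the microglia list was 4.06 to 4.91 in lines against 8.15 to 10.69 in p53R172HCKO gliomas, and that of oligodendrocyte progenitors was 8.88 to 11.22 in lines against 6.33 to 11.83 in those gliomas. The part of these cell types in the 7 differences was not tested. The metabotropic receptors had differences of 0.44 ± 0.74 for Grm3 and 0.49 ± 0.90 for Grm5 that did not pass (adjusted p = 0.744 and 0.763). Hpca and Hpcal4, at -2.53 ± 0.93 and -2.63 ± 0.98, did not pass either (limma, adjusted p = 0.0634 and 0.0693). With only the compared groups fitted both passed (limma, adjusted p = 0.0434 and 0.0462). Hpcal4 also passed with array weights and without arrays 36, 41 and 50 or 38, 45 and 58 (limma, adjusted p = 0.0409, 0.0418 and 0.0292). Gria3, at -1.83 (limma, adjusted p = 0.0622), passed with array weights and without arrays 36, 41 and 50 (limma, adjusted p = 0.00472 and 0.00159). Dlgap1, Dnm1 and Syn1 also passed in some alternatives.

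Against cortex, 37 of 39 members (94.9%) fell in the lines and none rose, with a median of -4.62, while 24.3% of all genes fell. The lines shared these cortices with the comparison of gliomas. Every line lay below every cortex for 32 members, and for 15.2% of all genes. Vsnl1 fell by 8.78 ± 1.16 (adjusted p = 8.43e-08), 438-fold lower, with 2.94 to 5.38 in lines against 12.05 to 12.41 in cortex. Hpcal4 had 3.21 to 4.30 with a median of 3.66 in lines, against 11.65 to 12.87 in cortex, and fell by 8.64 ± 1.24 (adjusted p = 4.08e-07). Hpca had 3.17 to 5.41 with a median of 3.85 in lines, against 11.26 to 12.63 in cortex, and fell by 8.03 ± 1.18 (adjusted p = 5.31e-07). All lines were under the array median for both genes except array 47 for Hpca, at 5.41. Snap25 fell by 7.77 ± 1.06 (adjusted p = 1.59e-07).

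**Figure D4:**
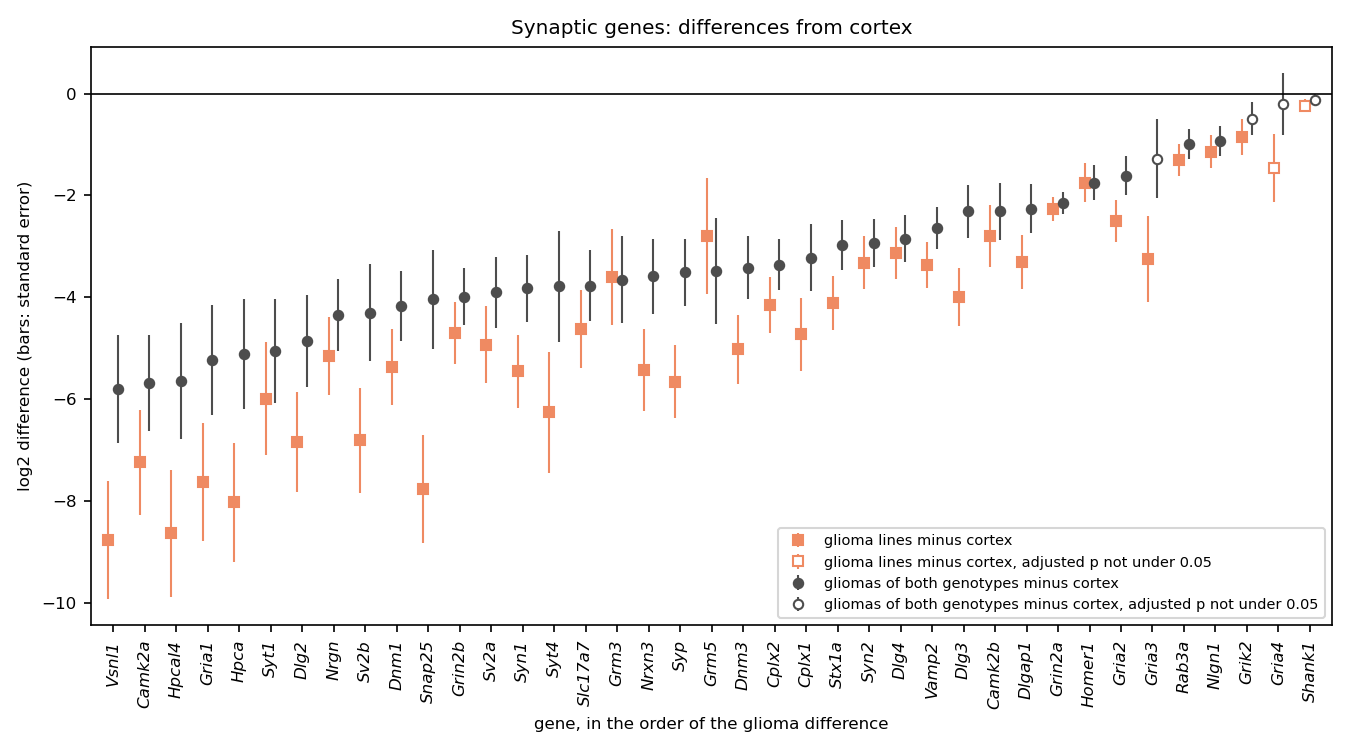
Log2 difference from cortex with its standard error for each synaptic gene, in glioma lines (squares) and in gliomas of both genotypes (circles), ordered by the difference in gliomas. Open symbols did not pass an adjusted p of 0.05; these are Gria4 and Shank1 in lines and Gria3, Grik2, Gria4 and Shank1 in gliomas.

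At the other end of the order, Grik2 fell in lines by 0.86 ± 0.35 (adjusted p = 0.0399), with 3.80 to 6.99 and a median of 5.79 in lines, against 6.24 to 6.41 in cortex. This call, and that of Grm5 at -2.80 ± 1.13 (adjusted p = 0.0379), was lost on leaving out any single cortex, with adjusted p of 0.0571 to 0.0706 for Grik2 and 0.0582 to 0.0665 for Grm5. Nlgn1 had 7.31 to 9.23 with a median of 8.20 in lines, against 9.15 to 9.64 in cortex, and fell by 1.14 ± 0.32 (adjusted p = 0.00303). Its lines in arrays 51 and 59 overlapped with cortex at 9.23 and 9.19. Rab3a had 8.82 to 9.75 with a median of 9.16 in lines, against 9.61 to 11.66 in cortex, and fell by 1.31 ± 0.31 (adjusted p = 0.000645). Shank1 had 4.04 to 4.75 with a median of 4.28 in lines, against 4.23 to 4.78 in cortex, and the difference of -0.24 ± 0.12 did not pass (adjusted p = 0.109), but did without cortex 33 (adjusted p = 0.0416). Gria4 was -1.46 ± 0.66 and did not pass (limma, adjusted p = 0.0648). It passed with the mean of its probe sets (-1.77, limma, adjusted p = 0.00554), after cyclic loess and with array weights (limma, adjusted p = 0.0237 and 0.00883). The other probe sets of Gria4 were -3.16 and -0.67 in lines against cortex.

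The lines differed from each other most in 4 receptors and in the synaptotagmins Syt4 and Syt1, the members with the highest SD. Grm5 had 3.88 to 11.24 with a median of 8.60, and Grm3 4.01 to 10.23 with a median of 8.19. Both were highest in array 59 and lowest in array 53. Gria3 had 3.91 to 10.84, highest in array 53 and lowest in array 47, and Gria4 had 4.66 to 10.47, highest in array 63 and lowest in array 61. In arrays 63 and 53 Gria4 was above every cortex, at 10.47 and 9.83, and in array 59 Grm5 was. By contrast Grin2a, Slc17a7, Grin2b and Hpcal4 had an SD of 0.13 to 0.29 among lines, all at signals of 4.67 or less, so a spread there could not have been seen. The vesicle genes Syt4 and Syt1 were high in single lines, Syt4 at 10.17 in array 65 and Syt1 at 10.25 in array 63, against medians of 4.70 and 6.81 over the 11 lines. The line of array 59 also had the highest Gria1, Camk2a and Nrgn of the lines, 7.06, 7.27 and 7.77, each well under the cortices.

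Lines from early biopsies were compared with the other lines, which came from malignant gliomas. None of the 39 members differed at an adjusted p under 0.05, nor did any at an unadjusted p under 0.05, while 0.0% and 2.83% of all genes did. With 2 early lines only large differences could pass. The largest were those of the metabotropic receptors, of which Grm3 had 10.11 and 9.55 in the early biopsy lines against 4.01 to 10.23 in the other lines, a difference of 2.28 ± 1.33 (limma, adjusted p = 1). Grm5 had 9.45 and 9.81 in the early biopsy lines against 3.88 to 11.24 in the other lines, a difference of 1.63 ± 1.62 (limma, adjusted p = 1). Both early lines thus lay in the upper range of the other lines for these genes and inside it. Syt4 and Syt1 were at -1.59 ± 1.69 and -1.37 ± 1.58. In both early lines Vsnl1 (3.10 and 3.46), Hpca (3.88 and 3.89) and Hpcal4 (3.49 and 3.61) were as dim as in the other lines.

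Further synapse genes, 72 from a list written from general knowledge, followed the members in gliomas against cortex, where 57 fell, 2 rose and the median was -2.35. That is 79.2% that fell, beside 24.7% of all genes. The lowest were Slc17a6, the glutamate transporter VGLUT2, at -5.25 ± 0.96, the vesicle GTPase Rab3c at -5.00 ± 0.87 and the release factor Unc13c at -4.51 ± 0.69. The 2 that rose were Syngr1, a synaptogyrin, by 1.24 ± 0.28 (adjusted p = 0.000315), and Homer3, a relative of Homer1, by 0.61 ± 0.22 (adjusted p = 0.019). Next in order was the neuroligin Nlgn2, which fell by 0.61 ± 0.26 (adjusted p = 0.0481). In lines against p53R172HCKO gliomas 10 of the 72 (13.9%) fell, beside 6.43% of all genes, and none rose. They were led by the active zone protein Pclo at -2.51 ± 0.53, Rab3c at -2.51 ± 0.75 and the adhesion protein Lrrtm1 at -2.39 ± 0.52. Against cortex 55 (76.4%) fell in lines, beside 24.3% of all genes, with Rab3c at -7.48 ± 0.95, Slc17a6 at -7.00 ± 1.04 and Pclo at -6.12 ± 0.67. Homer3 alone rose, by 1.13 ± 0.23. On the neuron score 46 of the 72 (63.9%) had a significant positive slope, beside 10.7% of all genes. The highest were 1.48 ± 0.09 for Rab3c, 1.33 ± 0.25 for Slc17a6 and 1.27 ± 0.08 for Ncs1, a neuronal calcium sensor.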

How the data were processed

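Total RNA of 40 mouse samples was hybridised to Affymetrix mouse genome arrays. The deposited values are log2 signals, which the authors made from the scans by RMA after correcting the background and quantile normalizing. The base is taken to be 2 from their range, 2.00 to 14.47. Quantile normalization gives all arrays nearly the same distribution, so a change in total RNA per cell is not seen. The members and gene lists were chosen with earlier results of these data known. Each of 18193 genes took its brightest probe set naming 1 gene in the platform annotation (34945 of 45101 probe sets name 1 gene), with no filter on dim signals. The 5 groups follow the labels. A linear model over the groups was fitted with limma 3.58.1 (R 4.3.3), adjusted by Benjamini-Hochberg over all genes; the slope was fitted over 22 gliomas with genotype as a covariate. Tables were made with pandas 2.3.3 (Python 3.11.15). No 2 of the 780 pairs of arrays were identical (highest correlation 0.993). All members may be named; values by sample are given for the 4 that fell most and the 4 that fell least against cortex, and for the ends of the slopes, and for further members chosen after their values were seen; of other synapse genes the 3 lowest and 3 highest that passed are named. Alternatives were other probe sets, filters, samples, weights, normalization, thresholds and the methods' t-test, without each cortex and without the gliomas of arrays 38, 45 and 58 or 36, 41 and 50, the last 2 added after seeing the data.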

Additional observations from a re-analysis of the deposited data

Results flagged for a closer look

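Each member was checked for a cortex standing apart from the other 4 by Dixon's test, and 2 of 39 were, where chance gives about 1 in 20. Grik2 was 6.24 in the cortex of array 33, against 6.36 to 6.41 in the others. Vsnl1 was 12.05 in the cortex of array 34, against 12.31 to 12.41 in the others. Both gaps are small beside the differences reported.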

How the results depend on the processing

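The count of members that fell was 32 to 38 in gliomas against cortex, 32 to 36 for each genotype and 34 to 39 in lines against cortex over the alternatives, and 34 to 35, 34 to 35 and 35 to 36 when each cortex was left out in turn. The low ends of 32, 32 and 34 came from the alternative without dim genes, in which only 35 members were tested. There 3027 of 11735 genes fell in gliomas and 3083 in lines. The high ends of 38 in gliomas and 39 in lines came with array weights, where 6087 and 5360 of 18193 genes fell. The count of members that differed stayed at 0 between the genotypes and between early biopsy and other lines in every alternative. In lines against p53R172HCKO gliomas it was 7, beside 1170 of 18193 genes that fell. With array weights it was 11, beside 1482 genes, and at an adjusted p under 0.10 it was 16, beside 1573 genes. Elsewhere it was at least 6. The count of significant positive slopes was 30, but 11 in p53R172HCKO gliomas alone and 13 without arrays 38, 45 and 58. Beside these stood 10.7%, 1.47% and 2.21% of all genes. The count was 21 without the 2 gliomas farthest from the median score, beside 752 of 18174 genes. Shank1 in gliomas against cortex was 0.0022 after cyclic loess. Slopes that changed sign were Gria2 at -0.087 without the 2 farthest gliomas and -0.24 without arrays 38, 45 and 58, Grin2a at -0.0042 and Homer1 at -0.031 without those 3 arrays, Gria3 at 0.0014 without arrays 36, 41 and 50, Grik2 at 0.0047 in p53nullCKO gliomas alone, and Nlgn1 at 0.028 after cyclic loess, 0.025 with array weights, 0.042 in p53nullCKO gliomas alone and 0.073 without arrays 36, 41 and 50. The cause was not tested. Against cortex, Shank1 in p53R172HCKO gliomas passed without cortex 33 (adjusted p = 0.0285) and with array weights (0.00317). No paired analysis was possible because, although each p53R172HCKO tumor had its own line, the labels do not say which line came from which tumor, and groups share no replicate number.

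Limits are those of the array. Members with signals near 5.36, the mean array median, carry only lower bounds. Of 29 members with several probe sets, 15 were lower by over 1 in gliomas on all of them, while 9 had probe sets both under -1 and over -0.5, among them Gria4, whose second probe set was -1.76 in gliomas against cortex, and Gria2, with a probe set at 0.11.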

Other observations

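The 5 cortices were not alike in their excitatory genes. In arrays 30 and 34 Camk2a was 12.50 and 12.33, against 13.22 to 13.78 in arrays 31 to 33, Stx1a was 10.13 and 10.31 against 11.95 to 12.33, and Homer1 was 10.15 and 10.34 against 11.58 to 11.78. The transporter Slc17a7 was 8.28 and 7.31 in arrays 30 and 34, against 9.06 to 9.51 in the other 3, while Slc17a6, the transporter of many thalamic and brainstem neurons, was 11.72 and 11.37, against 9.27 to 10.35. The level of mature oligodendrocyte genes was 10.79 in both arrays, against 9.33 to 10.31 in the others. Array 30 is a Cre-positive and array 34 a Cre-negative control, so the split does not follow the genotype, and its cause was not tested.

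In the glioma of array 50 single members were lost while others were kept. Gria3 was 3.52 there, against 7.88 or more in the other 21 gliomas, and Dnm3 was 3.99 against 6.02 or more, whereas Cplx1 was 12.71 and Rab3a 10.31. Olig2, a factor of the oligodendrocyte lineage, was 3.94 in array 50, against 6.03 or more in the other gliomas, and Neurod1, a neuronal differentiation factor, was 12.60. Among the lines, Grm3 and Grm5 were both highest in array 59, and both lowest in array 53, where Gria3 was the highest of all lines at 10.84.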
